A study of Mus musculus with 9 samples.

Results

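The genes described here are the mouse heat shock proteins and chaperones that the array platform names with a symbol starting in Hsp, Dnaj or Cct followed by a digit, with Hspg2, a basement membrane proteoglycan, left out. They comprise 81 genes among 18194 genes with a probe set of their own, and the choice by name used no measured value. Of their 200 single-gene probe sets, the one whose values averaged highest across the 9 arrays stood for each gene. It was tested where that probe set reached at least 4 on the log2 scale on at least 3 arrays, which 65 of the 81 genes and 12009 genes in all did. The 16 genes that did not were Cct6b, Cct8l1, Dnajb3, Dnajb7, Dnajb8, Dnajb13, Dnajc5b, Dnajc5g, Dnajc22, Dnajc25, Hspa1l, Hspb2, Hspb3, Hspb7, Hspb9 and Hspbap1, so every count below is over the 65 tested genes. Just inside the limit, Dnajc27 had a third-highest value of 4.82, Dnajb12 one of 7.35 and Dnajc28 one of 5.38. Just outside it, Hspbap1 had a third-highest value of 3.77, Dnajb7 one of 2.66 and Hspb3 one of 2.62.

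Molecular chaperones bind proteins that are unfolded, newly made or damaged and help them reach or regain their native form. HSP70 proteins do so in cycles of ATP hydrolysis, in which J proteins of the DNAJ families deliver the client and start the cycle and nucleotide exchange factors such as the HSP110 proteins end it. HSP90 acts later on signalling proteins, the chaperonins HSP60 and CCT enclose their clients in a ring, and small heat shock proteins hold unfolded proteins without using ATP. Some members are made in every cell at all times, others mainly under stress, and separate members serve the cytosol, the endoplasmic reticulum (ER) and the mitochondria.

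RNA of 9 samples of mouse brain was hybridised, 1 array each, in 3 groups of 3 biological replicates. Embryonic fragments were microvascular fragments, short pieces of small vessels, from NMRI mice at embryonic day 18.5. Rest of brain was the embryonic brain tissue of the same strain and age left without those fragments. Adult fragments were microvascular fragments from mice of a mixed C57/SV129 background aged 1 year, with replicates 1 and 3 male and replicate 2 female. How the fragments were isolated, and whether embryos were male or female, is not stated in the labels. The description of rest-of-brain replicate 3 names another embryonic day than its other labels. RNA was extracted with the RNeasy Micro kit from embryonic and the RNeasy Mini kit from adult tissue, and every sample was amplified from about 100 ng by the manufacturer's protocol for small samples. Between the 2 kinds of fragments, age, strain, sex and extraction kit therefore cannot be told apart. The wordings 'between the ages' and 'with age' below only name the comparison of adult with embryonic fragments, not an effect of age. In such bulk samples fewer cells of a type and less RNA per cell cannot be told apart either.

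The labelled tissues were checked against cell type markers. The summed level of 9 measured endothelial markers lay between 17.23 and 17.41 (log2) on the embryonic fragment arrays, between 17.43 and 17.44 on the adult arrays and between 11.84 and 12.17 on the rest-of-brain arrays, where Pecam1 and Emcn were under 4. The sum of 10 neuronal markers was 10.24 to 11.04 in embryonic fragments, 9.99 to 10.62 in adult fragments and 15.54 to 15.92 in rest of brain. Markers of other cell types were also higher in fragments: all 8 microglia and macrophage markers were called higher in embryonic fragments (sums of 15.53 to 16.92 against 13.15 to 13.39) and so were all 6 tested pericyte markers (15.86 to 16.16 against 12.96 to 13.62). In adult fragments these sums were 16.25 to 16.83 and 16.32 to 16.42. Of 6 markers of choroid plexus and ependyma, 5 were called higher in adult than in embryonic fragments, with sums of 16.79 to 16.87 and 15.70 to 16.22 and with 16.19 to 16.28 in rest of brain. The part of these cells in the members' values was not tested. All 9 arrays were alike in detection, with 47.4% to 48.1% of all probe sets at or above 4.

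Taken as a family, the chaperones differed between the groups about as often as other genes. A gene is called where limma's adjusted p, corrected over the 12009 genes, was under 0.05, and differences are log2 differences of group means ± the standard error of the fit, with 3 arrays a group. Between embryonic fragments and rest of brain, 17 members were called higher in fragments and 24 lower, 63.1% of the 65, against 66.1% of all genes tested (28.9% higher and 37.2% lower). Between adult and embryonic fragments, 18 were called higher in adult fragments and 18 lower, 55.4%, against 57.1% of all genes (27.4% higher and 29.7% lower). Between adult fragments and embryonic rest of brain, 19 were higher and 30 lower, 75.4% against 76% of all genes (33.1% higher and 42.9% lower). These shares lie near the background, so the counts are no result about the family as a whole. The comparisons share arrays with each other and are not independent.

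The typical size of a difference lay below that of all genes in each comparison, as a description with no test. The median size among the members was 0.49 between embryonic fragments and rest of brain against 0.80 over all genes, 0.53 against 0.60 between the ages, and 0.76 against 1.11 between adult fragments and rest of brain. The arrays of the 2 groups did not overlap for 53 members between the embryonic groups, 43 between the ages and 51 between adult fragments and rest of brain, while 76.7%, 62.6% and 79.9% of all genes had no overlap. At least 2-fold calls numbered 17, 13 and 27 members in these comparisons, while 43%, 31.1% and 52.9% of all genes were so called. The median signed difference was -0.16, -0.04 and -0.15, close to the -0.10, -0.02 and -0.17 of all genes. The plot of all differences shows this: most members lie within 1 log2 unit of 0, and a few stand far out.

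**Figure D1:**
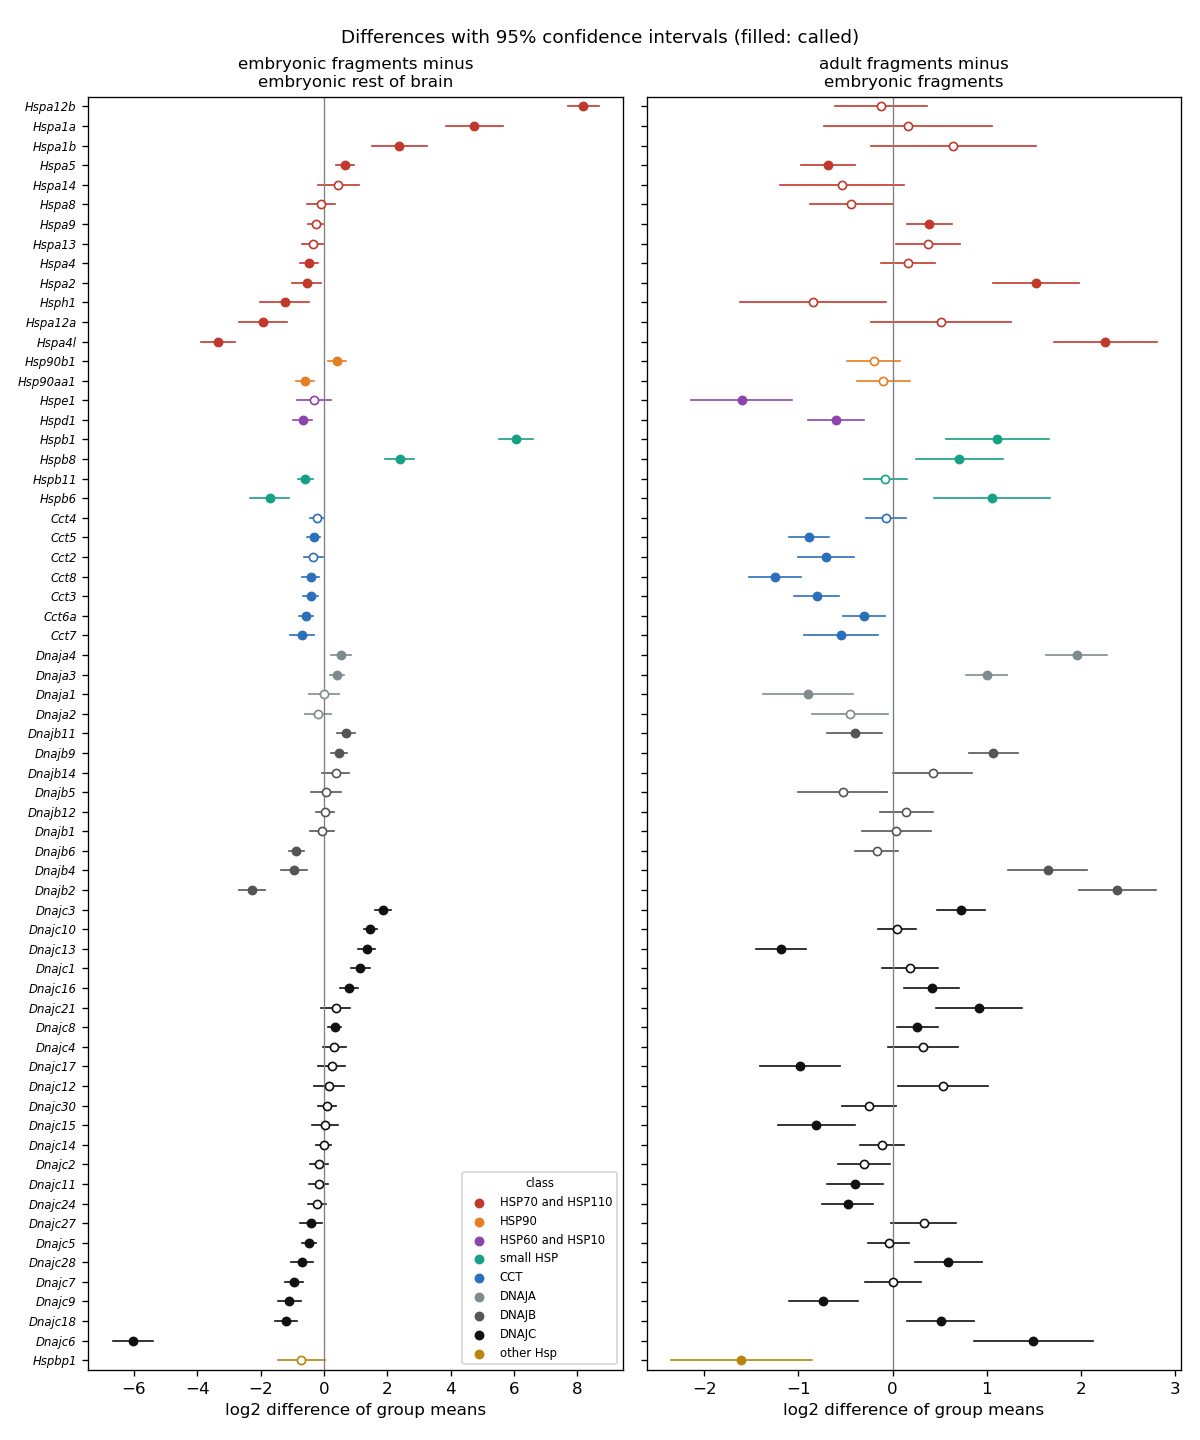
Log2 difference of group means for each of the 65 tested members, embryonic fragments minus rest of brain on the left and adult minus embryonic fragments on the right, with the 95% confidence interval of the fit as a line and called members filled; colours mark the class. Hspa12b (8.18), Hspb1 (6.06) and Hspa1a (4.75) stand out to the right and Dnajc6 (-6.04) to the left in the first panel, and the right panel has another scale.

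The cytosolic HSP70 genes that cells switch on under stress were far higher in fragments than in rest of brain. Hspa1a read 10.54, 10.24 and 9.73 on the embryonic fragment arrays, 5.90, 5.55 and 4.82 on the rest-of-brain arrays and 10.01, 11.10 and 9.89 on the adult arrays. All fragment arrays of both ages lay above all rest-of-brain arrays. Its difference was 4.75 ± 0.39 for embryonic fragments against rest of brain, a 26.9-fold higher level (adjusted p = 6.29e-06), and 0.16 ± 0.39 between the ages, which did not pass the test (adjusted p = 0.765, 95% interval -0.73 to 1.06). Hspa1b, its neighbour and near-identical copy, read 12.80, 12.21 and 12.02 in embryonic fragments, 10.34, 9.82 and 9.73 in rest of brain and 12.51, 13.89 and 12.56 in adult fragments. Its 3 groups fell in the same order, with a difference of 2.38 ± 0.38 from rest of brain (5.20-fold, adjusted p = 0.000523). Between the ages the 0.64 ± 0.38 did not pass (adjusted p = 0.186). Because the transcripts are so alike, the 2 probe sets may not separate the genes.

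The HSP70, J protein, HSP90 and HSP110 genes next described, chosen for their link to Hspa1a in the stress response, gave other values. Hspa8, the constitutive HSP70 that also strips clathrin from vesicles, read 15.66 to 15.82 in embryonic fragments, 15.77 to 15.85 in rest of brain and 14.89 to 15.73 in adult fragments. The embryonic groups overlapped, and no difference between them was called (-0.09 ± 0.19, adjusted p = 0.725). The probe set is marked as sharing probes with other transcripts. With probe sets ending in x_at, s_at or a_at left out, the one then standing for Hspa8 gave 2.99 ± 0.40 instead. Dnajb1, the J protein usually induced together with Hspa1a, read 12.61 to 13.06, 12.85 to 13.01 and 12.68 to 13.17 in the 3 groups, which overlapped, and was called in no comparison. Hsp90aa1, the stress-inducible cytosolic HSP90, was lower in embryonic fragments (14.43, 14.26 and 14.13) than in rest of brain (14.86, 14.86 and 14.93), by 0.61 on the log2 scale (adjusted p = 0.0022). Hsph1, a stress-inducible HSP110, was lower too, with 12.30, 12.06 and 11.41 against 13.21, 13.18 and 13.11. That difference was -1.24 ± 0.34 (adjusted p = 0.0105), and in adult fragments the arrays read 10.68, 11.87 and 10.68. Between the ages Hsph1 did not pass (-0.85 ± 0.34, adjusted p = 0.0614), but it was called lower without embryonic fragment replicate 3 (adjusted p = 0.0313), without adult replicate 2, with an intensity trend and with the mean of its probe sets.

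Genes of the immediate early response, which cells switch on within minutes of a stimulus, were, like Hspa1a and Hspa1b, mostly higher in embryonic fragments than in rest of brain. Of 19 tested, 17 were called higher in embryonic fragments than in rest of brain and 0 lower, with a median difference of 1.96. Over all genes 28.9% were called higher there and 37.2% lower. Klf2, a flow-responsive transcription factor, differed by 6.74 ± 0.19, Atf3, a stress-induced one, by 5.86 ± 0.41 and Klf4 by 5.01 ± 0.11. Between the ages, where neither Hspa1a nor Hspa1b was called, 7 of the 19 were called higher in adult fragments and 4 lower, 57.9% against 57.1% of all genes. Their part in the levels of Hspa1a and Hspa1b was not tested.

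Several inducible genes were among the members that varied most between adult arrays. Of the 12 members with the widest range on the adult arrays, the array of the female, replicate 2, was highest for 6: Hspa1a, Hspa1b, Hsph1, Hspa8, Dnaja1 and Hspb1. Replicate 3 was highest for the other 6: Hspbp1, Hspa14, Hspb6, Dnajc12, Cct7 and Dnajc17. In embryonic fragments replicate 1 was the highest for all of the first 6. Without adult replicate 2 the adult minus embryonic difference of Hspa1b was 0.19 instead of 0.64 and that of Hspa1a -0.22 instead of 0.16, and neither passed. Hsph1 fell by 1.24 and Hspa8 by 0.66 in adult fragments without that array, and both then passed the test (adjusted p = 0.00332 and 0.00425). With 1 female array, sex and array cannot be told apart. Within a group the members varied no more than other genes: the median SD was 0.12 in embryonic fragments, 0.09 in rest of brain and 0.19 in adult fragments, against 0.15, 0.13 and 0.23 over all genes.

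**Figure D2:**
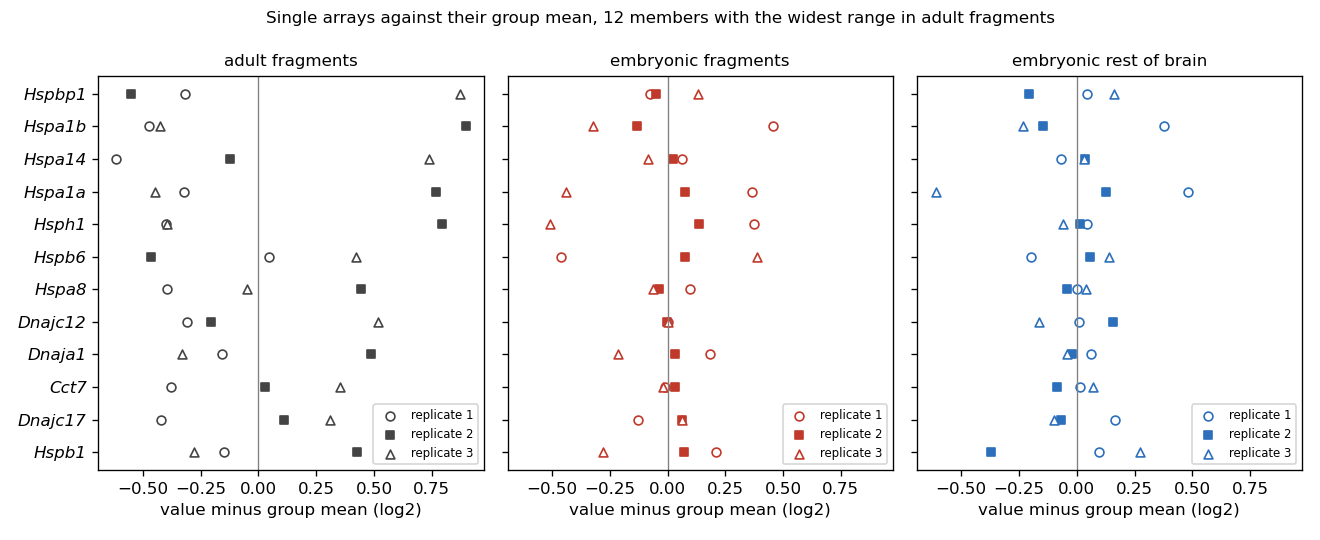
Log2 value of each array minus its group mean for the 12 members with the widest range in adult fragments, chosen after the values were seen, in 3 panels by group; the filled square is replicate 2, the female among the adults. In adult fragments replicate 2 lies farthest to the right for Hspa1a, Hspa1b, Hsph1, Hspa8, Dnaja1 and Hspb1.

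Heat shock factors bind arrays of the unit GAA in alternating orientation. In the RefSeq promoter table (GRCm38.p6, 250 bases before the start) 54 of the 65 tested members have an entry, and the letters were searched on both strands. The motif of 2 units, GAA then any 2 bases then TTC or the reverse order, was present in 15 of the 54 (27.8%) against 14.5% of 27025 genes. The motif of 3 alternating units, which contains the former, was present in Dnajb6, Hspd1 and Hspe1 (5.56% against 0.514%). Of the 15 genes, 5 were called higher in embryonic fragments than in rest of brain, 7 lower and 3 not. Of all genes tested, 28.9% were called higher there and 37.2% lower. The promoters of a pair of higher members and of Hspd1, which was lower, are shown because all 3 hold the letters, in capitals; they lie at chr17:34959239-34959488 on the minus strand, chr5:135887669-135887918 on the plus strand and chr1:55087933-55088182 on the minus strand. Each is written 5' to 3' on the gene's own strand and ends at the base before the start.
Hspa1b promoter: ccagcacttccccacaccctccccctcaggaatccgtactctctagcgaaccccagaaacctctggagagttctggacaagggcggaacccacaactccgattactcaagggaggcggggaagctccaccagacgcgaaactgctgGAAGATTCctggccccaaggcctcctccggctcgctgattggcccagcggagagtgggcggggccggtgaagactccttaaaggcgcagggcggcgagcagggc
Hspb1 promoter: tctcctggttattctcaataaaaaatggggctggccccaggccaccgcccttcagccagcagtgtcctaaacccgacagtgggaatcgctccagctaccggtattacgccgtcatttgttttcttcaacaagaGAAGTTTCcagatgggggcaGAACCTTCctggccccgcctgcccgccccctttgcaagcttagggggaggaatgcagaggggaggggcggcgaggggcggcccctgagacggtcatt
Hspd1 promoter: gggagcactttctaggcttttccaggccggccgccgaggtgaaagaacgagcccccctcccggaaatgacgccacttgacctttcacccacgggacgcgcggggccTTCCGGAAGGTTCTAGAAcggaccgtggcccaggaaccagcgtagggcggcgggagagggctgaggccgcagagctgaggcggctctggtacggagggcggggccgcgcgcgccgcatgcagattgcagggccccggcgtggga
The Hspa1a promoter is identical to that of Hspa1b at 247 of 250 positions and has the same match. The whole Hspd1 stretch also lies, on the opposite strand, within the promoter entry of Hspe1, which is transcribed the other way.

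The remaining HSP70 and HSP110 genes went different ways, so that of 13 tested in the class 4 were higher and 5 lower in embryonic fragments, 69.2% called and near the 66.1% of all genes. Hspa12b, a divergent HSP70 known for its expression in endothelium, read 11.20, 10.98 and 10.47 in embryonic fragments, 2.77, 2.69 and 2.65 in rest of brain and 10.70, 11.09 and 10.48 in adult fragments. The rest-of-brain arrays were all under 4, so the level in fragments was at least 118-fold higher in embryos and at least 108-fold higher in adults (adjusted p = 4.72e-09 and 3.54e-09). The 2 kinds of fragments overlapped, with a difference of -0.12 ± 0.21 between the ages that was not called (adjusted p = 0.663). Its close relative Hspa12a ran the other way, at 6.27, 6.81 and 7.71 against 8.84, 8.63 and 9.09 in rest of brain (-1.92 ± 0.33, adjusted p = 0.000728). All 9 measured endothelial markers were called higher in embryonic fragments and all 9 tested neuronal markers lower, as the sums given above show, and the part of cell makeup in these values was not tested.

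Hspa4l, an HSP110 protein best known from the mouse testis, read 5.98, 7.03 and 6.62 in embryonic fragments, 9.98, 9.89 and 9.80 in rest of brain and 8.70, 9.01 and 8.70 in adult fragments. The 3 groups did not overlap: the adult level lay between the others, 2.26 ± 0.24 above embryonic fragments (adjusted p = 6.86e-05) and 1.09 below rest of brain. Hspa2, the HSP70 required for meiosis in male mice, was higher in adult fragments (9.93, 9.67 and 9.31) than in embryonic ones (7.82, 8.30 and 8.24), by 1.52 ± 0.20 (adjusted p = 0.000237). Its lower level in embryonic fragments than in rest of brain (-0.54 ± 0.20, adjusted p = 0.039) did not pass with the replicate number as a block (adjusted p = 0.0644) or without any 1 of 5 arrays. Hspa4, the widely expressed HSP110, differed by -0.47 ± 0.13 between embryonic fragments and rest of brain (adjusted p = 0.00901). Another Hspa4 probe set was called the opposite way, at 0.64 ± 0.11, so its direction rests on the choice of probe set. Hspa9, the mitochondrial HSP70, was higher in adult fragments by 0.39 ± 0.10 (adjusted p = 0.0114), a call lost with the mean of its probe sets (0.07, adjusted p = 0.454). Hspa13, a membrane-bound HSP70 of the microsomes, and Hspa14, a partner of the ribosome, were called in no comparison. With the replicate number as a block both passed between the embryonic groups, Hspa13 lower (adjusted p = 0.0268) and Hspa14 higher (adjusted p = 0.0154). Without adult fragment replicate 3, Hspa14 was lower by 0.91 with age (adjusted p = 0.00158).

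**Figure D3:**
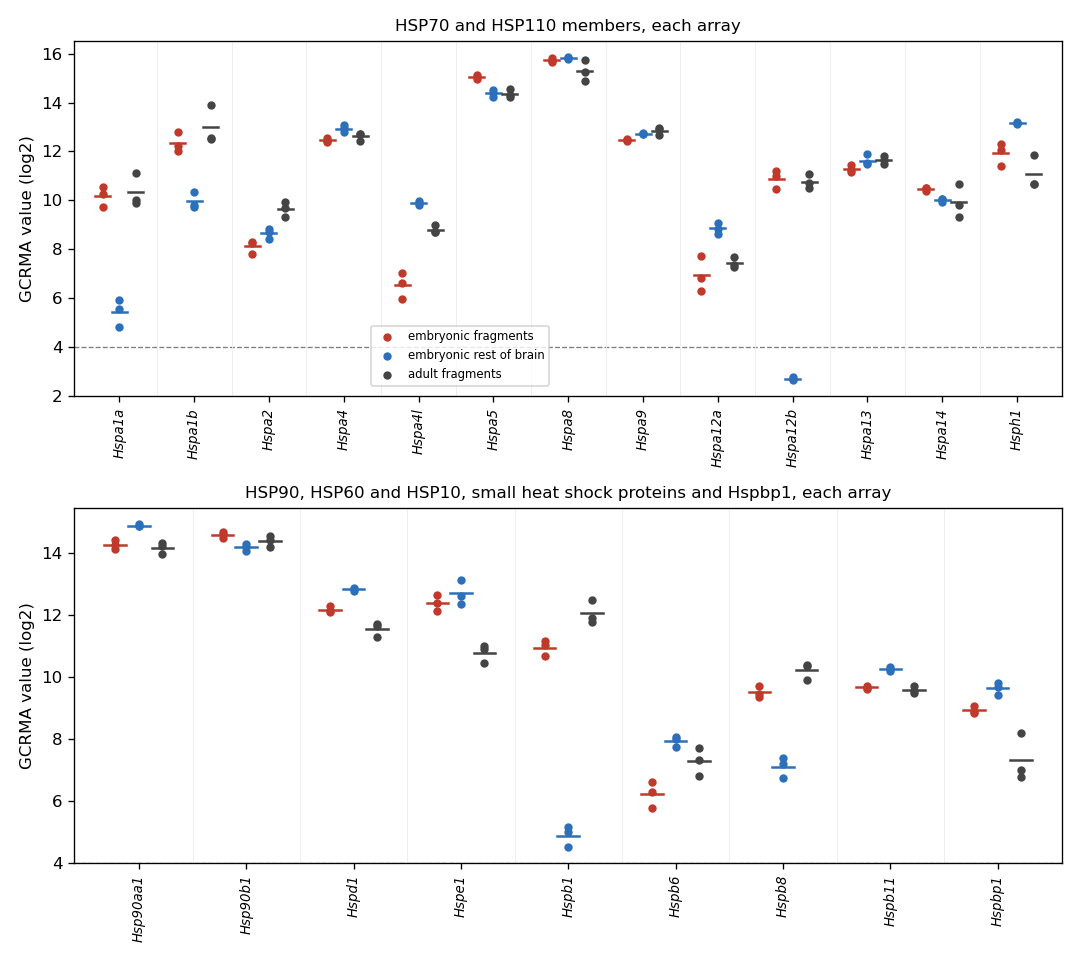
Log2 GCRMA value of every array (points) and group mean (short lines) for the 13 HSP70 and HSP110 genes in the upper panel and the HSP90, HSP60, HSP10, small heat shock protein genes and Hspbp1 in the lower panel; the dashed line marks 4, and the panels have different value axes. Hspa12b in rest of brain lies at 2.65 to 2.77, under the line, while both kinds of fragments lie above 10.

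Chaperones of the ER lumen were mostly higher in embryonic fragments than in rest of brain. Of 8 tested genes whose products work in the ER lumen, a grouping made after the values were seen, 7 were called higher, 0 lower and 1 not, with a median difference of 0.68 against -0.10 over all genes. Over the remaining 50 members outside the ER and mitochondrial groupings, 9 were called higher and 23 lower, with a median of -0.27. The 8 ER genes were thus called in 87.5% and the 50 others in 64%, where 66.1% of all genes were called, 28.9% higher and 37.2% lower. Between the ages the same 8 split into 2 higher and 2 lower, 50% called against 57.1% of all genes.

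Dnajc3, which restrains the translational arm of ER stress, read 11.39, 11.22 and 11.17 in embryonic fragments, 9.49, 9.45 and 9.25 in rest of brain and 11.90, 12.01 and 12.04 in adult fragments. The groups did not overlap, and the steps were 1.87 ± 0.11 over rest of brain (adjusted p = 7.83e-07) and 0.73 ± 0.11 between the ages (adjusted p = 0.000626). Another of its probe sets was called lower in adult fragments (-0.59 ± 0.15), so the direction with age is uncertain. Dnajc10, a J protein that reduces disulfides, read 12.91, 12.78 and 12.92 against 11.39, 11.39 and 11.43 (1.47 ± 0.09, adjusted p = 8.61e-07), and its adult arrays at 12.91 to 12.93 overlapped the embryonic fragments. Both other Dnajc10 probe sets were called lower with age (-0.63 ± 0.10 and -0.89 ± 0.11), so no direction with age can be given. Dnajc1, a J protein of the ER membrane, was higher by 1.15 ± 0.13 (adjusted p = 5.08e-05). Dnajb11, a helper of BiP for secreted proteins, was higher by 0.69 ± 0.13 (adjusted p = 0.00119), and Dnajb9, which aids degradation of misfolded ER proteins, by 0.49 ± 0.11 (adjusted p = 0.00449).

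Hspa5, which encodes BiP, the main ER HSP70, read 15.04, 15.14 and 14.98 in embryonic fragments, 14.51, 14.41 and 14.23 in rest of brain and 14.22, 14.55 and 14.32 in adult fragments. The embryonic fragments were the high group, by 0.67 ± 0.13 over rest of brain (adjusted p = 0.0013) and by 0.69 over adult fragments (adjusted p = 0.00161), while the other 2 groups overlapped. Hsp90b1, the ER HSP90, differed by 0.41 ± 0.12 (14.48 to 14.68 against 14.08 to 14.28, adjusted p = 0.0167) and was no longer called without embryonic fragment replicate 1 or rest-of-brain replicate 2 (adjusted p = 0.0543 and 0.0584). Adult fragments (14.20 to 14.56) overlapped both groups. Dnajb9 went the other way with age from Hspa5 and Dnajb11: its adult arrays at 13.75 to 13.86 lay 1.07 ± 0.11 above the embryonic fragments (adjusted p = 6.74e-05), while Dnajb11 was 0.40 lower (-0.40 ± 0.13, adjusted p = 0.0245). The Dnajb11 call was lost without any 1 of 4 arrays and under cyclic loess normalization (adjusted p = 0.0557 to 0.0779).

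**Figure D4:**
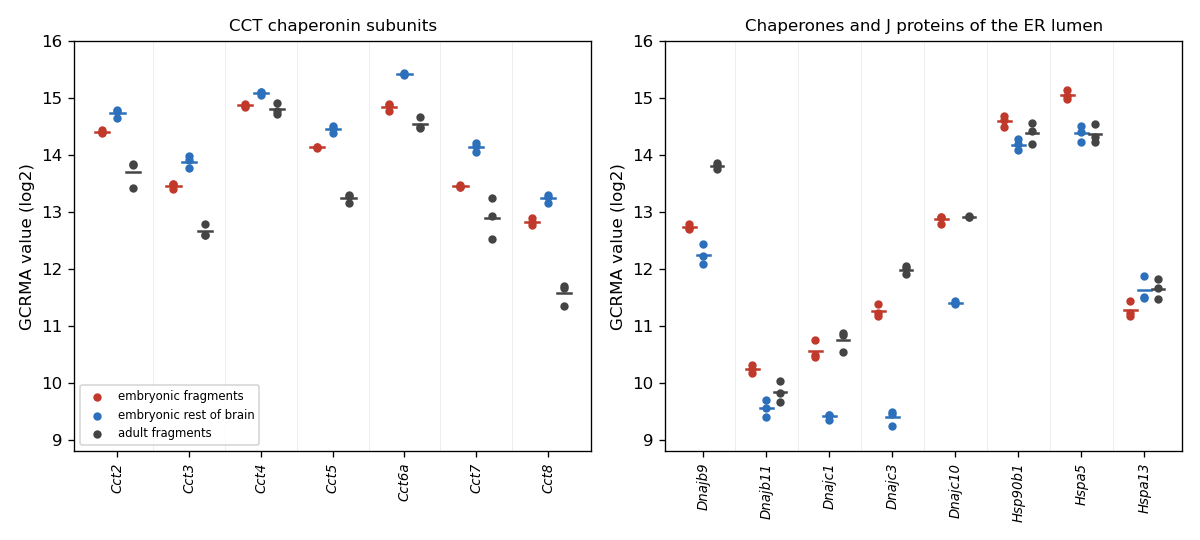
Log2 GCRMA value of every array (points) and group mean (short lines) for the 7 CCT subunit genes on the left and the 8 genes of the ER lumen on the right; the axis starts at 8.8. For CCT the rest-of-brain arrays are highest in each gene, and for the ER genes the embryonic fragments lie above rest of brain in all but Hspa13.

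The ER stress element, CCAAT then any 9 bases then CCACG, searched on both strands, was found in 3 of the 54 member promoters (5.56%) against 0.13% of all genes. The 3 genes were Hspa5, Hsp90b1 and Dnajc3. All were called higher in embryonic fragments than in rest of brain, as were 28.9% of all genes tested. The Hsp90b1 call was lost without embryonic fragment replicate 1 or rest-of-brain replicate 2. Between the ages 1 was higher, 1 lower and 1 not called, where 27.4% of all genes were higher and 29.7% lower. All 3 genes also belong to the ER lumen grouping above. Their promoters are shown with the element in capitals, on the reverse strand for the second one of Hsp90b1; they lie at chr2:34771840-34772089 on the plus strand, chr10:86705445-86705694 on the minus strand and chr14:118937682-118937931 on the plus strand.
Hspa5 promoter: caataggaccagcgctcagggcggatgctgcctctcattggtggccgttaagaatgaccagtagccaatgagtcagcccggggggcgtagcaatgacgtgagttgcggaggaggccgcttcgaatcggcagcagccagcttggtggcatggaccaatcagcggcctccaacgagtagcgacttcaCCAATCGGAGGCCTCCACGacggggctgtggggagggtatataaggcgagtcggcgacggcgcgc
Hsp90b1 promoter: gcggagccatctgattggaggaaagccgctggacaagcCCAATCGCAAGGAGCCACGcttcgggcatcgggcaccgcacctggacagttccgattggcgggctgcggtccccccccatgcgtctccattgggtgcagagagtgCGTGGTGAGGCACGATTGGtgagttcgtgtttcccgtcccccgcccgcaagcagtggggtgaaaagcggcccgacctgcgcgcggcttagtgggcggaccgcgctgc
Dnajc3 promoter: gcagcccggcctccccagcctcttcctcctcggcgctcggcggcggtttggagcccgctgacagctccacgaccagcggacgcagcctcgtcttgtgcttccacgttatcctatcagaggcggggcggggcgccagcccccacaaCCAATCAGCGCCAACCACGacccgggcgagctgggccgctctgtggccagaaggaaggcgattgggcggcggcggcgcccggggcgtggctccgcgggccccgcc
Counted back from the start, the element spans -65 to -47 in Hspa5, -212 to -194 and -107 to -89 in Hsp90b1 and -105 to -87 in Dnajc3. A match describes the letters of the window and is not a measured binding site.

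Other genes of ER folding, from a list chosen with earlier results known, also leaned to embryonic fragments, with 15 of 24 tested called higher than in rest of brain and 0 lower. That was 62.5% called against 66.1% of all genes, of which 28.9% were higher and 37.2% lower. Serpinh1, the collagen chaperone, was the largest at 2.25 ± 0.25, followed by Edem1, which sends misfolded glycoproteins to degradation, at 1.67 ± 0.14 and the stress sensor Atf6 at 1.21 ± 0.15. Between the ages the list split into 6 higher and 10 lower in adult fragments, 66.7% called against 57.1% of all genes. The sensor Ern1 (1.89 ± 0.15), Edem1 (1.01 ± 0.14) and Derl1 (0.94 ± 0.10) were higher, and Serpinh1 (-1.93 ± 0.25), Pdia4 (-1.41 ± 0.17) and Creld2 (-1.09 ± 0.16) lower.

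The subunits of the cytosolic chaperonin CCT, the ring that folds actin and tubulin, were lowest in adult fragments and highest in rest of brain. All 7 tested had a negative difference in each comparison: 5 were called lower in embryonic fragments than in rest of brain, 6 lower in adult than in embryonic fragments and 7 lower in adult fragments than in rest of brain. Of all genes 37.2%, 29.7% and 42.9% were called lower in these comparisons. Median differences were -0.42, -0.71 and -1.21 against -0.10, -0.02 and -0.17 over all genes. For all 7, every embryonic fragment array lay below every rest-of-brain array, as was the case, in either direction, for 76.7% of all genes.

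Cct8 differed most between the ages. It read 12.82, 12.77 and 12.89 in embryonic fragments, 13.27, 13.16 and 13.30 in rest of brain and 11.35, 11.67 and 11.71 in adult fragments. The 3 groups did not overlap, with -1.25 ± 0.12 between the ages (adjusted p = 3.84e-05) and -0.42 ± 0.12 between the embryonic groups (adjusted p = 0.0136). Cct5 followed with -0.89 ± 0.09 and -0.32 ± 0.09, Cct3 with -0.81 ± 0.11 and -0.42 ± 0.11. The representative probe sets of Cct2, Cct3 and Cct4 are, like that of Hspa8, marked as sharing probes with other transcripts. Cct7 gave -0.55 ± 0.17 and -0.69 ± 0.17, and Cct6a -0.31 ± 0.10 and -0.58 ± 0.10. The calls of Cct6a and Cct7 with age did not hold when single arrays were left out, Cct6a without embryonic fragment replicates 1 or 3 or adult replicates 1 or 2 and Cct7 without any 1 embryonic fragment array. Cct2 was lower in adult fragments (-0.71 ± 0.13) but was not called between the embryonic groups (-0.33 ± 0.13, adjusted p = 0.051), where it passed with the replicate number as a block (adjusted p = 0.037). Cct4 was the exception between the ages, at -0.07 ± 0.09 (adjusted p = 0.561) with overlapping arrays, and its sign turned positive under cyclic loess normalization (0.06) and with the mean of its probe sets (0.09). With probe sets ending in x_at, s_at or a_at left out it was -0.49 and passed (adjusted p = 0.0136).

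Tcp1, the CCT subunit whose symbol does not start with Cct, was lower by 0.50 in embryonic fragments than in rest of brain and by 0.95 in adult than in embryonic fragments (adjusted p = 0.00351 and 0.00013). Among 10 tested genes of prefoldin, which hands actin and tubulin to CCT, and of CCT partners including Tcp1, 5 were called lower and 1 higher in embryonic fragments than in rest of brain. That was 60% called against 66.1% of all genes. Pfdn2 was the lowest at -1.58 ± 0.17, then Pfdn6 at -0.96 ± 0.20 and Pfdn4 at -0.87 ± 0.14, while Pdcl3 was higher at 0.41 ± 0.11. Between the ages 3 were lower, led by Tcp1 and Pfdn1 (-0.81 ± 0.16), and 2 higher, Pdcl (0.64 ± 0.15) and Pdcl3 (0.46 ± 0.11). These calls made up 50% of the list, against 57.1% of all genes. The summed markers of neural progenitors had the same order of groups, with of 15.05 to 15.11 in rest of brain, 11.72 to 12.04 in embryonic fragments and 10.92 to 11.27 in adult fragments, where Pax6, Dlx1, Neurod1 and Eomes were under 4. Of the 6 markers, Nes went the other way, higher in embryonic fragments than in rest of brain by 1.48 ± 0.16. Their part in the CCT values was not tested.

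The mitochondrial chaperonin followed CCT with age. Hspd1, the HSP60 subunit, read 12.09, 12.28 and 12.12 in embryonic fragments, 12.85, 12.77 and 12.86 in rest of brain and 11.30, 11.65 and 11.72 in adult fragments, without overlap. It was lower by 0.66 and by 0.60 in the 2 steps (adjusted p = 0.00175 and 0.004). Hspe1, its HSP10 lid, read 12.65, 12.11 and 12.38, then 13.13, 12.36 and 12.61, and 10.44, 10.90 and 10.99 in adult fragments. The embryonic groups overlapped (-0.32 ± 0.24, adjusted p = 0.262, and 0.0463 with the replicate number as a block), and the adult arrays lay below both, -1.60 ± 0.24 from embryonic fragments (adjusted p = 0.000473). A grouping of 7 mitochondrial members was made after the values were seen and may not hold every such member. Of the 7, 4 were lower and 2 higher in adult than in embryonic fragments, where 29.7% of all genes were lower and 27.4% higher. The higher ones were Hspa9 and Dnaja3, a J protein that partners it, at 1.00 ± 0.10 (adjusted p = 4.1e-05). Of 12 further genes of mitochondrial folding and proteolysis, 5 were called lower with age and 1 higher, 50% against 57.1% of all genes. Clpb (-1.18 ± 0.10), Grpel1, the exchange factor of mitochondrial HSP70 (-0.81 ± 0.12), and Afg3l2 (-0.72 ± 0.16) were the lowest, and Yme1l1 was higher (1.25 ± 0.25).

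Of the 4 small heat shock proteins tested, 2 were higher and 2 lower in embryonic fragments than in rest of brain, and 3 were higher in adult than in embryonic fragments. Of all genes 66.1% and 57.1% were called in these comparisons. Hspb1, known as HSP27, which binds unfolded proteins and actin filaments, read 11.16, 11.02 and 10.67 in embryonic fragments, 4.98, 4.52 and 5.16 in rest of brain and 11.91, 12.48 and 11.78 in adult fragments. The groups did not overlap, with a 66.8-fold higher level in embryonic fragments than in rest of brain (6.06 ± 0.24, adjusted p = 5.23e-08) and a 2.16-fold higher level in adult fragments (1.11 ± 0.24, adjusted p = 0.00386). A probe set of Hspb1 that is not the representative gave 6.55 ± 0.28 and 1.05 ± 0.28. Hspb8, which acts in a complex with Bag3, read 9.70, 9.46 and 9.36 against 7.39, 7.20 and 6.75 (2.39 ± 0.20, adjusted p = 7.2e-06). Its adult arrays at 9.91, 10.34 and 10.39 were higher by 0.71 ± 0.20 (adjusted p = 0.0153), a call lost without embryonic fragment replicate 3. Bag3 itself was higher in embryonic fragments than in rest of brain by 2.25 ± 0.22 (adjusted p = 2.08e-05).

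Hspb6, known as HSP20 from muscle, was lowest in embryonic fragments, at 5.76, 6.30 and 6.61 against 7.73, 7.99 and 8.07 in rest of brain and 7.33, 6.81 and 7.70 in adult fragments. It was lower by 1.71 than in rest of brain (adjusted p = 0.000457) and rose by 1.06 ± 0.27 to adult fragments (adjusted p = 0.0091). Cryab, a small heat shock protein whose symbol the choice by name does not take, was higher in embryonic fragments than in rest of brain by 1.63 ± 0.14 and in adult than in embryonic fragments by 1.54 ± 0.14. Hspb11, which serves transport in cilia, was lower in embryonic fragments by 0.59 (adjusted p = 0.000752), and its adult arrays overlapped the embryonic fragments. Markers of smooth muscle, 7 of 7 measured, summed to 12.39 to 12.94 in embryonic fragments, 9.17 to 9.77 in rest of brain and 15.51 to 15.66 in adult fragments, and Cnn1 and Lmod1 were under 4 in both embryonic groups. Of these markers, 6 were called higher with age and 1 lower (-2.02), while between the embryonic groups 4 were called higher and 3 not. Their part in the small heat shock protein values was not tested.

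Among the J proteins, the largest difference was that of Dnajc6, auxilin, which recruits Hspa8 to clathrin coats and is known from neurons. It read 4.84, 5.57 and 4.46 in embryonic fragments, 10.93, 11.03 and 11.03 in rest of brain and 6.41, 6.14 and 6.81 in adult fragments. The groups did not overlap, and the level in embryonic fragments was 65.7-fold lower than in rest of brain (-6.04 ± 0.28, adjusted p = 1.35e-07) and rose by 1.49 ± 0.28 to adult fragments (adjusted p = 0.00169). Dnajb2, a J protein rich in neurons, read 7.34, 7.72 and 7.42, then 9.96, 9.65 and 9.70, and 9.65, 9.76 and 10.21 in adult fragments. Embryonic fragments were the low group, with -2.28 ± 0.18 from rest of brain (adjusted p = 4.43e-06) and 2.38 ± 0.18 between the ages (adjusted p = 8.6e-06), while the other 2 groups overlapped. Dnajb4, a heat-inducible partner of HSP70, had the same low group, with -0.94 ± 0.18 and 1.64 ± 0.18. Over all tested members, 8 were called lower in embryonic fragments than in both other groups, 12.3% against 10.9% of all genes. These include Hspa2, Hspa4l and Hspb6, which are not J proteins. The neuronal marker sum was not higher in adult than in embryonic fragments. Single neuronal markers split: of 9 tested, 2 were called higher and 4 lower with age, with differences from -6.28 to 4.31. The astrocyte sum was 12.92 to 13.66 in adult and 10.10 to 11.51 in embryonic fragments, against 14.31 to 14.81 in rest of brain. The part of these cells in the J protein values was not tested.

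Dnajc13, an endosomal J protein, was the reverse, highest in embryonic fragments. It read 11.35, 11.38 and 11.27 in embryonic fragments, 9.98 ± 0.03 (mean ± SD, n = 3) in rest of brain and 10.19, 10.32 and 9.94 in adult fragments. It was 1.35 ± 0.12 above rest of brain (adjusted p = 8.62e-06) and adult fragments were 1.18 lower (adjusted p = 4.56e-05), with overlap of the other 2 groups. Dnajc9, a chaperone of histones, fell stepwise from 12.04 to 12.08 in rest of brain through 10.83 to 11.08 in embryonic to 10.03 to 10.60 in adult fragments. Its steps were -1.09 ± 0.16 (adjusted p = 0.000286) and -0.74 ± 0.16 (adjusted p = 0.00406). Dnajb6, which keeps polyglutamine proteins from aggregating, was lower in embryonic fragments than in rest of brain by 0.87, and Dnajc7, an HSP70 and HSP90 cochaperone, by 0.94 (adjusted p = 5.5e-05 and 0.000188). Neither was called between the ages.

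Dnaja4 and Dnaja3 were higher in embryonic fragments than in rest of brain and higher again in adult fragments. Dnaja4, a cytosolic J protein, read 8.29, 8.13 and 7.85, then 7.59, 7.62 and 7.43 in rest of brain and 9.97, 9.94 and 10.22 in adult fragments. The groups did not overlap, and the steps were 0.54 ± 0.14 (adjusted p = 0.00861) and 1.95 ± 0.14 (adjusted p = 7.42e-06). With the mean of all probe sets of a gene, neither was called between the embryonic groups (Dnaja3 0.17 and Dnaja4 0.19), nor was Dnaja3 with age (0.27, adjusted p = 0.0801). Dnaja1, the main J partner of Hspa8, did not differ detectably between the embryonic groups (-0.01 ± 0.21, adjusted p = 0.979) and was lower in adult fragments (13.11, 13.75 and 12.94 against 14.35, 14.20 and 13.95; -0.90 ± 0.21, adjusted p = 0.00559). Another Dnaja1 probe set was called higher with age (0.51 ± 0.15), so its direction rests on the choice of probe set. In the comparison of embryonic groups both other Dnaja1 probe sets were called lower in fragments (-1.01 ± 0.15 and -1.12 ± 0.10). Dnaja2, another J partner of Hspa8, was called in neither of these comparisons. Further calls with age were Dnajc21, a factor of ribosome assembly, higher by 0.92 ± 0.20, Dnajc17 lower by 0.99 and the mitochondrial Dnajc15 lower by 0.81. With the mean of all probe sets Dnajc21 (0.20, adjusted p = 0.29) and Dnajc17 (-0.21, adjusted p = 0.164) were not called with age. Dnajc18 was lower in embryonic fragments than in rest of brain (-1.19 ± 0.15, adjusted p = 0.000131), a call lost with the mean of all probe sets. Its call with age (0.51 ± 0.15) was lost without embryonic fragment replicates 2 or 3 or adult replicates 2 or 3 (adjusted p = 0.0506 to 0.0733). Another Dnajc18 probe set was called lower with age, so that direction rests on the choice of probe set.

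**Figure D5:**
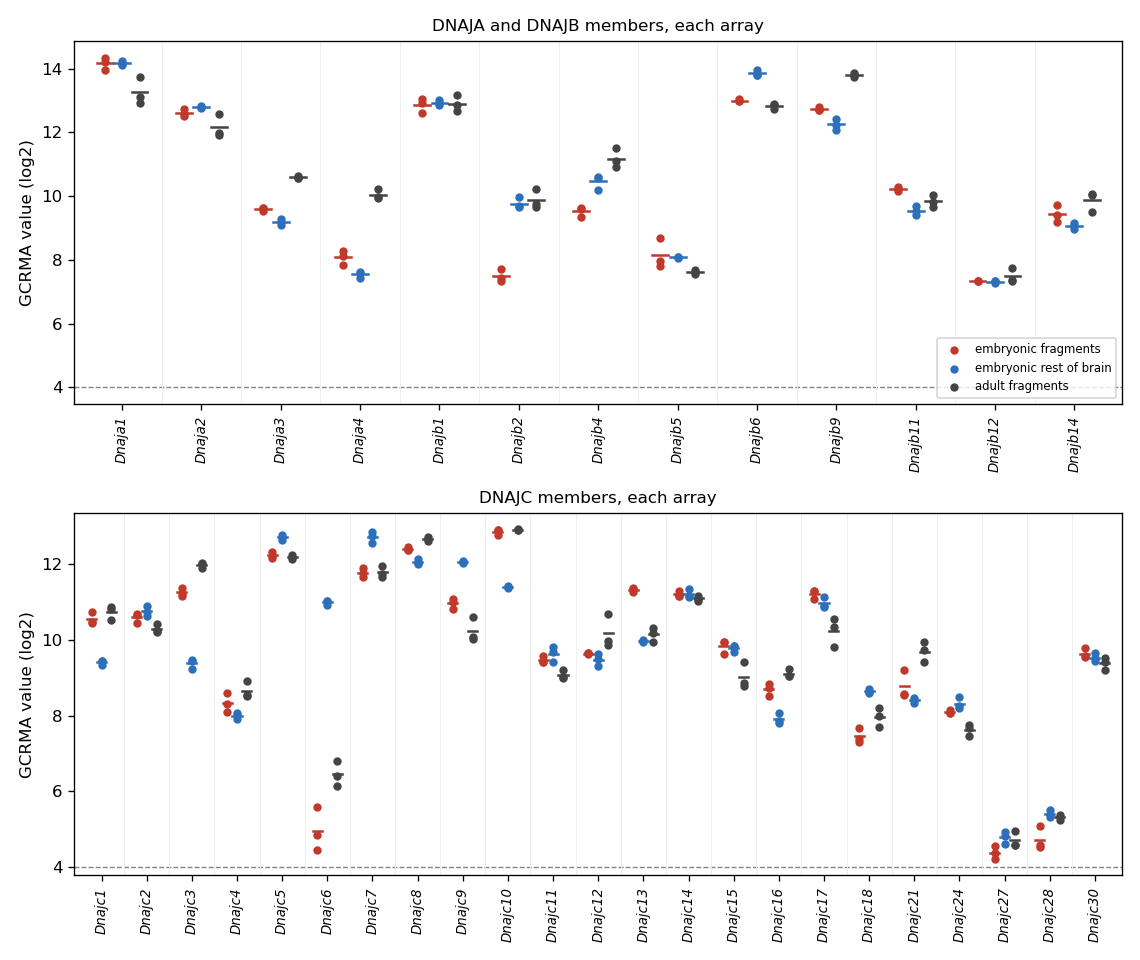
Log2 GCRMA value of every array (points) and group mean (short lines) for the 4 DNAJA and 9 DNAJB genes in the upper panel and the 23 DNAJC genes in the lower panel; the dashed line marks 4. Dnajc6 shows the widest gap, with rest of brain at 10.93 to 11.03 and embryonic fragments at 4.46 to 5.57, and Dnajb1, Dnajb12 and Dnajc14 show 3 overlapping groups.

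Hspbp1, an exchange factor of HSP70, read 8.85, 8.87 and 9.05 in embryonic fragments, 9.68, 9.43 and 9.80 in rest of brain and 7.32 ± 0.76 (mean ± SD, n = 3) in adult fragments. The adult arrays were the lowest, by 1.60 under embryonic fragments (adjusted p = 0.00288), with replicate 3 at 8.19 and replicate 2 at 6.77, and the embryonic groups were not called apart (-0.71 ± 0.33, adjusted p = 0.0838). They were with the replicate number as a block (adjusted p = 0.00432), and also without adult replicate 3, with only the 2 groups in the fit, with quantile normalization repeated and with array weights. Of 24 tested genes of a cochaperone list, 12 were called lower and 3 higher in adult than in embryonic fragments. That was 62.5% called against 57.1% of all genes, of which 29.7% were lower and 27.4% higher. Bag2, which inhibits degradation of HSP70 clients, was lowest at -2.05 ± 0.24, then Fkbp5, a cochaperone of steroid receptors, at -1.94 ± 0.34 and Ahsa2 at -1.36 ± 0.26. Tomm34 (0.74 ± 0.15), Bag5 (0.43 ± 0.15) and Unc45a (0.41 ± 0.12) were the higher ones. Between embryonic fragments and rest of brain 5 were higher, led by Bag3, Bag2 (1.03 ± 0.24) and Sugt1 (0.61 ± 0.13), and 9 lower, led by Bag4 (-1.61 ± 0.12), Ahsa2 (-1.37 ± 0.26) and Stip1 (-0.96 ± 0.17). There 58.3% of the list was called, against 66.1% of all genes. Of the 4 genes of the heat shock factor list, Hsf1 and Hsf4 were not tested. The other 2 were called lower in adult than in embryonic fragments, as were 29.7% of all genes. Hsf2 differed by -1.18 ± 0.31 and Hsbp1, a binding protein of the factors, by -0.76 ± 0.15.

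Across the 3 comparisons the members were called about as often as all genes. Of the 65 members, 20 (30.8%) were called in all 3 comparisons, against 29.7% of all genes, 58 (89.2%) in at least 1, against 88.7%, and 7 in none: Dnajb1, Dnajb5, Dnajb12, Dnajc14, Dnajc30, Hspa13 and Hspa14. Between the embryonic groups and then with age, 8 members (12.3%) were higher in both steps, against 8.35% of all genes, and 7 (10.8%) lower in both, against 8.88%. Another 8 (12.3%) were lower then higher, against 10.9%, and 3 (4.62%) higher then lower, against 9.88%. None of these differences in share was tested. The 8 higher in both were Dnaja3, Dnaja4, Dnajb9, Dnajc3, Dnajc8, Dnajc16, Hspb1 and Hspb8. With age Dnajc3 and Dnajc16 each have another probe set called lower, and the Dnajc8 call (0.26, a J protein of the spliceosome) was lost without any 1 of 6 arrays (adjusted p = 0.0538 to 0.103) and with the mean of its probe sets. The 7 lower in both were Cct3, Cct5, Cct6a, Cct7, Cct8, Dnajc9 and Hspd1. Both steps use the embryonic fragment arrays.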

How the data were processed

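Per the submitters' processing notes, the log2 expression values that the authors deposited for each probe set come from GCRMA (version 2.6.0, run under R 2.4.1). This method normalizes arrays by quantiles, so a change in total RNA per cell cannot be seen. Scanner files were not analysed here, and 0 per-sample columns went unused. Probe sets naming several genes were left out. All 9 arrays entered 1 limma fit (version 3.58.1 under R 4.3.3, with lmFit and eBayes, 2-sided), with Benjamini-Hochberg adjustment over 12009 genes. The fit was tested on simulated data. Where every array of a group was under 4, folds are bounds against 4. Same-numbered embryonic arrays deviated together (correlations of 0.19, 0.20 and 0.22 over genes, and -0.21 to -0.02 for different numbers). The number was therefore tried as a block between the embryonic groups, as an alternative only. Calls and p-values given without mention of the block come from the fit without it. Same-numbered embryonic and adult fragments did not pair (0.03, -0.08 and 0.21), and block calls with age are not reported. Every HSP, CCT and DNAJA member is open to naming. Of DNAJB, DNAJC and other members the 4 largest calls per direction with a mean of at least 6 were named, plus those of highest or lowest mean, and of other lists the 3 largest. Genes outside this rule were chosen after their values were seen. The members and lists were chosen with earlier results of these data known. The labels call the arrays biological replicates and say no more of their source, so p-values measure the spread between these samples. The grouping by ER and mitochondria was made after the values were seen. The alternatives tried covered the arrays fitted, the block, filters, normalization, a floor, weights, an intensity trend, the probe set choice and leaving out each array. The number of arrays limits the precision.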

Additional observations from a re-analysis of the deposited data

Results flagged for a closer look

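Hspb3, a muscle-expressed small heat shock protein, was left out by the limit on low values, and yet reached 4.74 on adult fragment replicate 2 and 5.32 on replicate 3. Its other 7 arrays lay between 2.11 and 2.62. Probe sets that name Dnajc19 together with its pseudogene belong to no single gene and were not tested. One of them read 9.95, 9.93 and 9.88 on the adult fragment arrays, above 6.83 to 7.27 in embryonic fragments and 7.91 to 8.48 in rest of brain. Another stood at 4.51 on adult fragment replicate 3 and between 2.64 and 2.70 on the other 8 arrays.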

How the results depend on the processing

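Over 21 alternatives the counts of members called and the median differences stayed within 1.5 times the reported counts and, for medians, within the spread between arrays. Leaving out single arrays gave 16 to 19 members higher and 22 to 27 lower in embryonic fragments than in rest of brain, with medians of -0.21 to -0.10. It gave 15 to 18 and 15 to 20 between the ages, with medians of -0.09 to 0.01, and 19 to 20 and 27 to 31 between adult fragments and rest of brain, with medians of -0.22 to -0.15. With the replicate number as a block, 18 members were higher and 27 lower between the embryonic groups. Hspa2 lost its call and Cct2, Hspa13, Hspa14, Hspbp1 and Hspe1 gained one. Of the called members, 34 of 41, 23 of 36 and 41 of 49 kept their call under every alternative in which they were tested. Only 64 of the 65 members were tested with the mean of all probe sets or with the stricter filter. Without probe sets ending in x_at, s_at or a_at only 53 were. The representatives of 11 tested members end in x_at or s_at, among them those of Cct2, Cct3, Cct4, Dnaja2, Hspa8, Hspa12a, Hspb1 and Hspe1. With the mean of all probe sets of a gene, the sign turned between the embryonic groups for Dnajc14 (0.29), Dnajc17 (-0.33) and Hspa4 (0.011), between the ages for Dnajb12 (-0.71), Dnajc10 (-0.49), Dnajc16 (-0.59) and Dnajc18 (-0.35), and between adult fragments and rest of brain for Dnaja2 (0.17) and Hspa13 (-1.38). Without probe sets ending in x_at, s_at or a_at the sign turned for Hspa8 and, between the ages, for Dnajc10 (-0.89), whose representative ends in a_at. Hspa8 then gave 2.99 between the embryonic groups and 1.94 between adult fragments and rest of brain. The cause was not tested.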
